A study of Mus musculus with 4 samples.

Results

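The comparison set 1 library labelled KO beside 1 labelled WT, both from thymocytes of the later of 2 sorted stages, group 3, which was TCRβ high and CD69 high. Its genes were those with 10 or more CPM (the count scaled to the library total) in either library, 8837 of 35275 genes in the count table. The cells came from untreated C57BL/6 mice aged 6 to 8 weeks, either wild type, given in the design as Uba3F/F, or Uba3-/-, given there as Uba3ΔT, and total RNA was taken with Trizol after flow sorting. The Cre driver behind Uba3ΔT and whether animals were pooled are not given in the sources used here. The earlier stage, group 2 (TCRβ intermediate, CD69 high), has 1 library of each genotype as well, 4 libraries in all, and is quoted beside the results. Groups follow the sample titles, since the cell type field of the labels calls both WT libraries group 2 and both KO libraries group 3.

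UBA3 forms, with NAE1, the enzyme that loads NEDD8, a small relative of ubiquitin, for transfer to other proteins. NEDD8 is attached to cullins, the scaffolds of a large family of ubiquitin ligases, and switches them on, so this pathway governs the turnover of many regulators, among them the antioxidant factor NRF2 and cell cycle inhibitors. Thymocytes that carry both TCRβ and CD69 have received a signal through the T cell receptor and are passing through positive selection towards export as mature T cells.

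The 4 libraries held between 8043077 and 10299863 counts, 8043077 for WT and 9689339 for the library labelled KO of group 3. Pairs of counts are given unscaled, WT first, so only ratios, folds and scaled CPM are corrected for library size. With 1 library a side there is no replicate, so each ratio carries an exact 95% interval for counting error only and no p-value. A gene was called higher or lower when its log2 fold, taken on CPM scaled by TMM factors plus 0.5, reached 2-fold and the interval of its ratio excluded 1. Scaled to equal depth, WT group 3 would show 23325 genes with a count and the library labelled KO 20061. In group 2 the order was the reverse, 19917 in WT against 23614 in the library labelled KO.

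The level of the deleted gene did not follow the labels. Uba3 (ENSMUSG00000030061, chr6:97183670-97205647 in mm10) had 356 counts in WT against 856 in the library labelled KO of group 3, beside 453 and 647 in group 2. The ratio was 2.06 (interval 1.82 to 2.34), so the gene was higher where its deletion is labelled. Counts over a whole gene do not separate deleted from kept exons, and the direction is written throughout as that of the library labelled KO. Ccr7, a chemokine receptor gained late in selection, had 4830 and 5703 counts in group 3 against 2052 and 1412 in group 2. Cd3e, a chain of the T cell receptor complex, had 10732 and 10647 counts in group 3, and Rag1, a recombinase gene of immature thymocytes, 2073 and 1454. Scaled, Cd3e stood at 0.849 of WT (interval 0.827 to 0.873) and Rag1 at 0.601. In bulk RNA of this kind, fewer cells of a type and less RNA per cell cannot be told apart.

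Most genes stood close to their WT level. Of the 8837 genes, 89.5% lay within 1.5-fold and the median log2 fold was 0.03. The library labelled KO was called higher for 100 genes (1.13% of those compared) and lower for 83 (0.939%). At any size of fold, the counting interval lay above 1 for 2735 genes (30.9%) and below 1 for 2043 (23.1%). The called genes moved little of the RNA: the 100 higher genes held 2882 scaled CPM in WT against 9466 in the library labelled KO, and the 83 lower genes 2759 and 827. Both sides sat largely among weakly expressed genes. The mean of the 2 libraries was under 30 scaled CPM for 61 of the 100 higher and 72 of the 83 lower genes. Of all 8837 genes, 2800 were under it. The lower library was under 10 scaled CPM for 40 of the 100 higher and 61 of the 83 lower genes, and with 10 CPM required in both libraries 60 and 22 calls were left. A gene that passes the limit in 1 library only is compared through its high side, which favours a call. Genes just inside the limit of 10 CPM were Igf2bp2 (59 and 97 counts in WT and the library labelled KO) and Tnfsf10 (64 and 97), and just outside it Zfp580 (80 and 95) and Fgr (80 and 93).

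**Figure D1:**
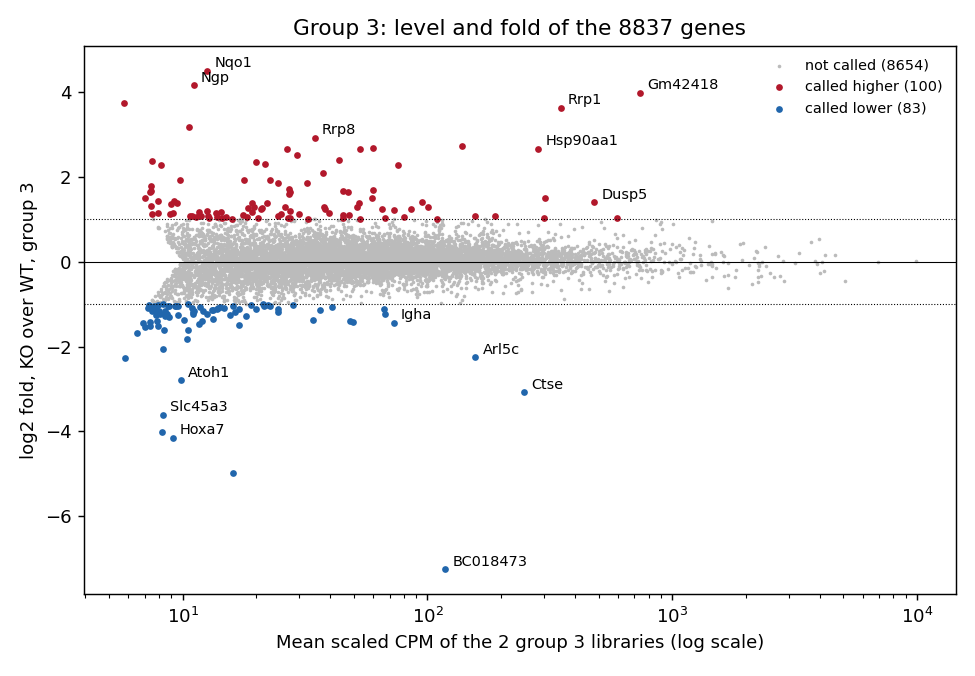
Each point is 1 of the 8837 genes, placed by the mean scaled CPM of the 2 group 3 libraries (log scale) and by the log2 fold of the library labelled KO over WT. The 100 genes called higher are red, the 83 called lower blue, dotted lines mark 2-fold, and most calls lie at the left, among weakly expressed genes.

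Set against the same genes in group 2, part of the 183 calls showed a clear gap between the 4 libraries. In group 2, the same 8837 genes gave 144 higher (1.63%) and 73 lower calls (0.826%). Both libraries labelled KO stood past 2-fold from both WT libraries for 21 of the higher and 14 of the lower genes. For 22 higher and 8 lower genes, the library labelled KO of group 3 alone stood past 2-fold from the other 3 libraries. WT group 3 stood alone in this way for 4 of the lower genes and for 0 of the higher. The remaining 57 and 57, most of the calls, had no such gap. Whether the difference between the sorted groups exceeds variation between animals was not tested, since no fit of 4 single libraries leaves residual error for it.

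**Figure D2:**
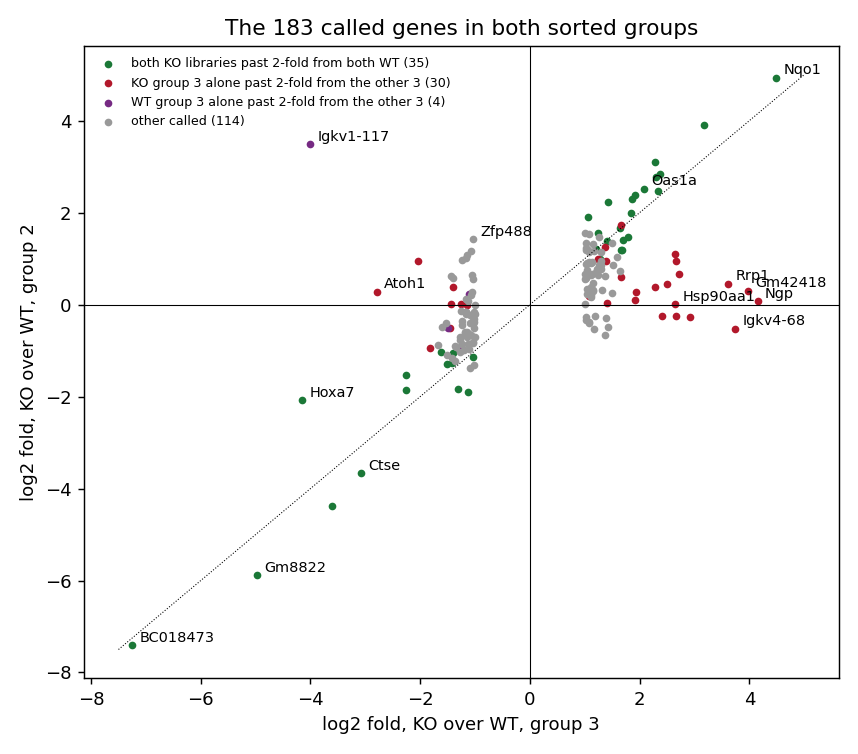
The 183 called genes by log2 fold of the library labelled KO over WT in group 3 (horizontal) and group 2 (vertical), with colour for the pattern over the 4 libraries and a dotted line of equal folds. Green genes such as Nqo1 and Oas1a lie near the line. Among red genes, Rrp1 and Hsp90aa1 lie to the right, at 0.45 and 0.004 in group 2. Atoh1, also red, lies to the left, and the red genes Rrp12 and Tnfsf11 lie near the line.

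Of the 22 genes for which the library labelled KO of group 3 stood alone above the rest, 10 take part in ribosomal RNA processing. All 8 genes compared that are named Rrp, for ribosomal RNA processing, were called higher, by 3.49-fold to 12.4-fold. Exosc5 and Dis3, parts of the RNA exosome that trims ribosomal RNA from its 3′ end, were called higher with them. These 10 genes lie on 8 chromosomes. Of them, Rrp1b, Rrp7a, Rrp8, Rrp12, Rrp15 and Dis3 were under 10 CPM in WT group 3. They were compared only because the library labelled KO passed the limit, which favours a higher call. Rrp1, Rrp9, Rrp36 and Exosc5 passed it in both libraries. The grouping of the 10 genes was made after their values were seen, so it describes these libraries and carries no test.

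The promoters of Rrp1 and Exosc5 are shown to let their sequences be compared. They are the most abundant Rrp gene and the more abundant of the 2 called exosome genes. Each run holds 250 bases before and 50 after a RefSeq start (GRCm38.p6), 5′ to 3′ on the gene's strand, with the E-box core CACGTG, bound by MYC and related factors, in capitals.
Rrp1, chr10:78412994-78413293, minus strand: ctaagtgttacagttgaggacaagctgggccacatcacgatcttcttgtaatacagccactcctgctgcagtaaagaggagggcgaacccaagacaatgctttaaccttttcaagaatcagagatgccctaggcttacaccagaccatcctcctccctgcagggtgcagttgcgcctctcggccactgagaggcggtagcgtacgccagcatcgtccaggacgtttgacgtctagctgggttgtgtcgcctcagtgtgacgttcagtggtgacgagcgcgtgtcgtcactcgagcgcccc
Exosc5, chr7:25658903-25659202, plus strand: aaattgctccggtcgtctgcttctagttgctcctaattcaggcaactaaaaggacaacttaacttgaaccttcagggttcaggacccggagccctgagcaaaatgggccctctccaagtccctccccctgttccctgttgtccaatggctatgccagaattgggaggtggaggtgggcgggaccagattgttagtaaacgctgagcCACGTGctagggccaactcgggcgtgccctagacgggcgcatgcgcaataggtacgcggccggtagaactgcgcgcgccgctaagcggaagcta
The core begins 44 bases before the start in Exosc5 and does not occur in the Rrp1 window. On either strand it occurred in 1 of 10 windows of the 7 Rrp genes matched (10%), in 10 of 48 windows of the wider ribosome biogenesis list (20.8%) and in 10.4% of windows of all genes compared. A match is a run of letters and not a measured site, and no match says nothing of the factor.

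Rrp1 (ENSMUSG00000061032, chr10:78400384-78413043), a nucleolar protein of large subunit assembly, had 426 counts in WT against 6169 in the library labelled KO of group 3. In group 2 it had 351 and 404 counts, so 1 library of the 4 stood far above the rest. The ratio in group 3 was 12.4 (interval 11.2 to 13.7), and the RPKM, which are per length, were 26.4 and 317.1. Rrp8, a methyltransferase of the nucleolus, had 63 and 586 counts in group 3 and 85 and 59 in group 2. Rrp9, a component of the U3 ribonucleoprotein, had 115 and 873 counts in group 3 and 125 and 206 in group 2. Rrp7a and Rrp36, both of small subunit assembly, had 57 and 443, and 110 and 701 counts in group 3. Their values in group 2 were 40 and 77 for Rrp7a and 133 and 94 for Rrp36. Rrp15, with 69 and 478 counts, and Rrp1b, the relative of Rrp1, with 75 and 345, showed the same order. Rrp12 was the weakest, with 27 and 110 counts and a ratio of 3.49 (interval 2.27 to 5.53), and the group 2 libraries had 5 and 24. Over the 8 genes the median log2 fold was 2.58 in group 3 and 0.45 in group 2. Only Rrp7a and Rrp12 were called in group 2.

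Apart from Exosc5 and Dis3, other listed genes of the same machinery were not called. Exosc5 had 130 and 992 counts in group 3 (136 and 95 in group 2), and Dis3, a nuclease of the exosome, 58 and 272 (85 and 88 in group 2). The other 8 exosome genes compared ran from 0.876 to 1.22 of WT, with a median log2 fold of 0.03 and 0 calls in either direction at 2-fold. Exosc2, for instance, had 302 and 309 counts and Exosc10 1386 and 1510, scaled ratios of 0.876 and 0.933. In the whole list of ribosome biogenesis and exosome genes, 9 of 49 were called higher and 0 lower, beside 1.13% of all genes. At any fold, the counting interval lay above 1 for 23 of the 49 (46.9%) and below 1 for 6 (12.2%). Over all genes these shares were 30.9% and 23.1%. The 42 genes of that list without an Rrp symbol had a median log2 fold of 0.07. Nat10, an acetyltransferase of ribosomal RNA, had 234 and 165 counts and Utp20, a small subunit factor, 95 and 75, both lower without reaching 2-fold. Fbl, the methyltransferase fibrillarin, had 1495 and 1264 counts and Ncl, nucleolin, 6028 and 7523.

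**Figure D3:**
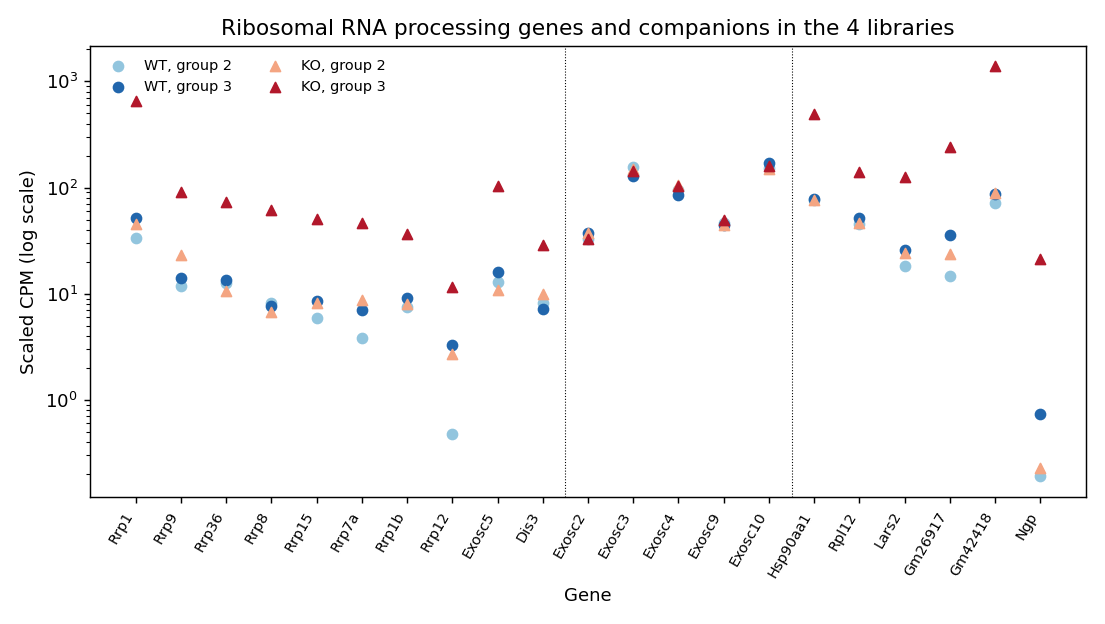
Scaled CPM (log scale) of 21 genes in the 4 libraries, with circles for WT and triangles for libraries labelled KO. Dotted lines part the 10 processing genes, on the left, from 5 further exosome genes and from genes set beside them, and the dark red triangle of group 3 stands apart on the left and right but not in the middle.

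Lars2 and 2 neighbouring transcripts on chromosome 17 moved with the same library. Gm42418 (chr17:39846958-39848788) is a long non-coding gene that overlaps the annotated ribosomal RNA gene CT010467.1 on the opposite strand. It had 713 counts in WT against 13175 in the library labelled KO of group 3, and 756 and 786 in group 2. Its neighbour Gm26917 (chr17:39843013-39846341) had 292 and 2283 counts in group 3 and 154 and 207 in group 2. Lars2, the leucyl-tRNA synthetase of mitochondria, had 210 and 1203 counts in group 3 and 193 and 214 in group 2. These 3 genes made up 24.3% of the scaled CPM that the 100 higher genes gained, and the 10 processing genes 15.4%. Their part in the rise of the processing genes was not tested. Gm42418 and Gm26917 fall outside the rule for named genes and were chosen after their values were seen.

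Hsp90aa1, the inducible cytosolic chaperone HSP90 alpha, rose in the same library. It had 632 counts in WT against 4660 in the library labelled KO of group 3, beside 799 and 674 in group 2, a ratio of 6.31 (interval 5.81 to 6.87). Its constitutive partner Hsp90ab1 had 8079 and 10957 counts, and Hspa8, the constitutive HSP70, 10042 and 15051. Of 31 cytosolic heat shock genes, Hsp90aa1 alone was called, the list median was 0.12, and in group 2 it was -0.06. Hspe1, a mitochondrial co-chaperonin, followed with 301 and 508 counts. The highest of the list was thus not accompanied by the others at a 2-fold level. At any fold, the counting interval lay above 1 for 19 of the 31 (61.3%) and below 1 for 1 (3.23%). Over all genes these shares were 30.9% and 23.1%.

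Rpl12, a protein of the large ribosomal subunit, had 422 and 1321 counts in group 3 and 479 and 413 in group 2. Rpl38 had 127 and 320 in group 3 and 275 and 173 in group 2. Of 78 cytosolic ribosomal protein genes these 2 were called, both higher, beside 1.13% of all genes. The list median was 0.24 in group 3 and -0.12 in group 2. At any fold, the counting interval lay above 1 for 49 of the 78 and below 1 for 12, beside 30.9% and 23.1% of all genes. Summed, the list held 18829 scaled CPM in WT against 19341 in the library labelled KO. Rpl4, at the low end of the list, had 9738 and 8853 counts. Genes of this family have many processed copies, so the share of reads given to each is uncertain.

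Short transcripts moved in opposite directions in the 2 sorted groups. The 59 genes with under 500 bases of exon, receptor and immunoglobulin segments left out, had a median log2 fold of 0.47 in group 3, and 49 of them were above 0. In group 2 the median was -0.31 and 10 were above 0. From 500 bases upward the medians of the length bands lay between -0.02 and 0.05 in group 3. The band under 500 bases summed to 2942 scaled CPM in WT group 3, to 3130 in KO group 2, and to 3822 and 3896.5 in the other 2 libraries. The 2 libraries with the lower sums are those with more genes detected. The part of this in the folds of Rpl38 and other short genes was not tested.

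**Figure D4:**
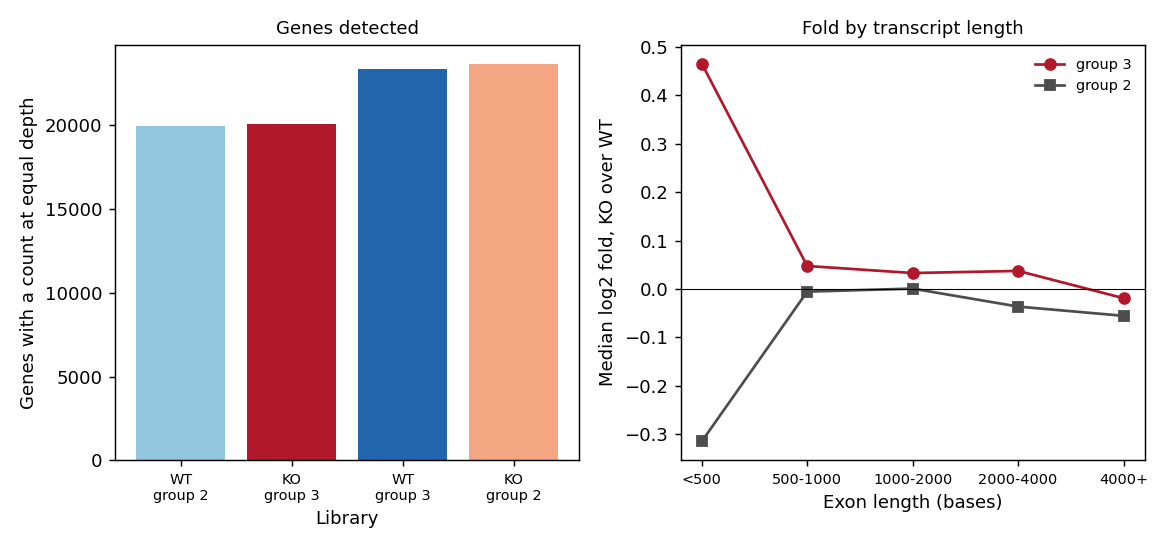
Left, genes with a count in each library after scaling to the depth of the shallowest. Right, median log2 fold of the library labelled KO over WT by exon length in bases, in group 3 (red) and group 2 (grey). WT group 3 and KO group 2 reach 23325 and 23614 genes, and the shortest genes stand at 0.47 in group 3 and -0.31 in group 2.

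A few genes were called in opposite directions in the 2 sorted groups, 5 of them lower in group 3 and higher in group 2, and 0 the other way. Zfp488, a zinc finger factor, had 238 and 133 counts in group 3 and 160 and 368 in group 2. Nfic, a nuclear factor I gene, had 88 and 46 in group 3 and 35 and 71 in group 2. All 5 were highest in WT group 3 and KO group 2, the 2 libraries with more genes detected. The part of detection in these opposite calls was not tested.

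Genes higher in both libraries labelled KO were led by Nqo1. Nqo1 (ENSMUSG00000003849, chr8:107388225-107403206), a quinone reductase controlled by NRF2, had 5 counts in WT against 234 in the library labelled KO of group 3, and 3 and 207 in group 2. Its ratio in group 3 was 40.1 (interval 16.9 to 125). At 0.613 scaled CPM in WT group 3, it was compared only through the library labelled KO, which favours a higher call. Txnrd1, thioredoxin reductase, had 835 and 1814 counts, a ratio of 1.86, and Gclm, of glutathione synthesis, 283 and 557. Gstp1, a glutathione transferase, had 786 and 1739 counts. Of 25 NRF2 targets compared, 1 was called higher and 0 lower, beside 1.13% and 0.939% of all genes. The median log2 fold was 0.44. The counting interval lay above 1 for 18 of the 25 and below 1 for 4, against 30.9% and 23.1% of all genes. At the other end stood Gsto1, another glutathione transferase, with 256 and 202 counts, and Slc7a11, the cystine importer, with 382 and 330. In 28 promoter windows of the list, 10 held the antioxidant response core TGACNNNGC on either strand (35.7%, against 14.6% for all genes compared), and the Nqo1 window was not among them.

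Further genes stood higher in both libraries labelled KO. Lad1, ladinin, an anchoring filament protein, had 14 and 185 counts in group 3 and 2 and 87 in group 2. Pcsk1, a prohormone convertase, had 17 and 123, and Ramp3, a receptor partner of the calcitonin family, 51 and 320. Ly6c1, a surface protein of maturing T cells, had 57 and 345, and Sdc1, syndecan 1, 20 and 132. All 5 were called higher in group 2 as well, with 67 and 409 counts there for Ly6c1 and 20 and 178 for Sdc1. Each was under 10 CPM in WT group 3 and was compared only through the library labelled KO, which favours a higher call. Dtx1 and Hey1, both targets of Notch signalling, had 111 and 483, and 25 and 112 counts. Hey1 too was compared only through the library labelled KO. Dusp5, a phosphatase that quenches ERK, was the most abundant, with 2144 and 6611 counts and a ratio of 2.64 (interval 2.51 to 2.77). Members of the Ly6 family share sequence, so the counts of Ly6c1 are less certain.

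Interferon-stimulated genes stood above WT as a group. Of 36 compared, 4 were called higher, beside 1.13% of all genes, and 0 lower, and the median log2 fold was 0.53, beside 0.03 for all genes. The counting interval lay above 1 for 30 and below 1 for 3, beside 30.9% and 23.1% of all genes. Oas1a, an oligoadenylate synthetase, had 114 and 581 counts in group 3 and 90 and 454 in group 2, a ratio of 4.36 (interval 3.56 to 5.38). Rsad2, viperin, had 99 and 281 counts. Parp14 (238 and 226) and Stat2 (425 and 415) marked the lower end, at 0.813 and 0.836 of WT. In group 2 the median was 0.65 and 12 were called higher. The promoter of Oas1a shows the element that many of these genes carry, GAAANNGAA, in capitals as 2 overlapping matches.
Oas1a, chr5:120907476-120907775, minus strand: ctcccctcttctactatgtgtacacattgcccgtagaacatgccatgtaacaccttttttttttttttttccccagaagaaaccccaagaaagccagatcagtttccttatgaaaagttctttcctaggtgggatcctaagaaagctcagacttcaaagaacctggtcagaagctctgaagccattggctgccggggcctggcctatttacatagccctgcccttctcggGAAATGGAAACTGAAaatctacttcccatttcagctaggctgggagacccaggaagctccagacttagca
The first match begins 20 bases before the start. Over the list, 17 of 30 windows held the element on either strand (56.7%), against 7.47% for all genes compared.

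Genes of the stress response to amino acid shortage, driven by ATF4, gave 3 calls among 15, all higher, beside 1.13% of all genes. Cebpb, a transcription factor, had 106 and 399 counts, and Trib3, a pseudokinase, 33 and 112, and both were called in group 2 as well. Trib3 was under 10 CPM in WT and was compared only through the library labelled KO. Ddit4, an mTOR inhibitor on the same list, had 136 and 101 counts. Junb, an AP-1 factor induced at once by stimulation, had 8109 and 18321 counts (ratio 1.94, interval 1.89 to 1.99). Nr4a1, induced by the T cell receptor, had 3184 and 7603 counts and was called higher. TCR-induced genes gave 3 higher and 1 lower call among 27, beside 1.13% and 0.939% of all genes, with a median of 0.11. The lower call was Tnfrsf4, the OX40 receptor, with 769 and 379 counts in group 3 and 317 and 132 in group 2.

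By amount of RNA, and with predicted genes such as Gm42418 left out, 9 of the 10 largest gains were in genes that did not reach 2-fold, the exception being Rrp1. Tmsb4x, thymosin beta 4, which binds actin monomers, had 26603 and 44883 counts, a ratio of 1.45 (interval 1.42 to 1.47). Lcp1, plastin of leukocytes, had 5729 and 12469 counts, Cnn2, a calponin, 4724 and 10892, and Actr3, of the ARP2/3 complex, 5070 and 11228. With Actg1, gamma actin (17320 and 25508), 5 of the 10 largest gains were genes of the actin cytoskeleton, a grouping made after the values were seen. Ftl1 and Fth1, the chains of ferritin, had 25305 and 40638, and 13421 and 21209 counts. B2m, the light chain of MHC class I, had 13218 and 20593. In group 2 the log2 folds of these 8 ran from 0.25 for Tmsb4x to 1.02 for Cnn2.

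The largest losses of RNA were likewise spread over abundant genes. Satb1, a chromatin organiser of thymocytes, had 47706 and 40599 counts, a ratio of 0.729 (interval 0.719 to 0.738). Cd8b1, the CD8 beta chain, had 27068 and 22949 counts, a ratio of 0.726. Hmgb2, a chromatin protein of dividing cells, had 16695 and 12605. Tcf7, the T cell factor TCF1, had 35583 and 34557 counts, a ratio of 0.832. None of these reached 2-fold.

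All 32 mitosis genes stood below WT. Their log2 folds ran from -1.28 to -0.29 with a median of -0.58. The counting interval lay below 1 for 32 of 32, beside 23.1% of all genes, and 1 was called lower, beside 0.939%. Ttk, a kinase of the spindle checkpoint, had 212 counts in WT against 99 in the library labelled KO, and 351 and 142 in group 2, a ratio of 0.400 in group 3. Aspm, a spindle pole protein, had 309 and 191 counts. Cenpa, the histone of centromeres, had 1824 and 1732, and Hmmr, a spindle protein, 594 and 567, the smallest shift of the list. Summed, the list held 4196 scaled CPM in WT against 2878 in the library labelled KO, and in group 2 4705 and 3079. Many of these genes carry a short element near the start, the cell cycle homology region TTTGAA, shown in capitals for Ttk, where it reads on the opposite strand.
Ttk, chr9:83834439-83834738, plus strand: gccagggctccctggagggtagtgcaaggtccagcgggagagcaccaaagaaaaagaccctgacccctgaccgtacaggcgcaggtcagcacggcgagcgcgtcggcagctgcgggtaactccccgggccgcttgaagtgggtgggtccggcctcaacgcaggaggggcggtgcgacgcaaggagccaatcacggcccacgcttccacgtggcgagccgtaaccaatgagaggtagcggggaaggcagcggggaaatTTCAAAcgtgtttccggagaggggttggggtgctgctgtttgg
It begins 7 bases past the start. On either strand it occurred in 23 of 30 windows of the list (76.7%) and in 11.99% of windows of all genes compared.

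Related lists moved the same way. Of 34 DNA replication and E2F target genes, 2 were called lower, beside 0.939% of all genes, and 0 higher, and the median was -0.31. Brca1, of DNA repair, had 138 and 69 counts, E2f2, a cell cycle factor, 746 and 398, while Cdt1, a licensing factor normally degraded through a cullin ligase, had 495 and 807. Brca1 was under 10 CPM in the library labelled KO and was compared only through WT, which favours a lower call. Among 17 replication-dependent histone genes 3 were called lower, beside the same share, and the median was -0.52. Hist1h2bg had 225 and 118 counts and Hist2h2be 274 and 145. Histone genes share sequence and mostly lack poly(A) tails, so their counts depend on how the library was made.

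**Figure D5:**
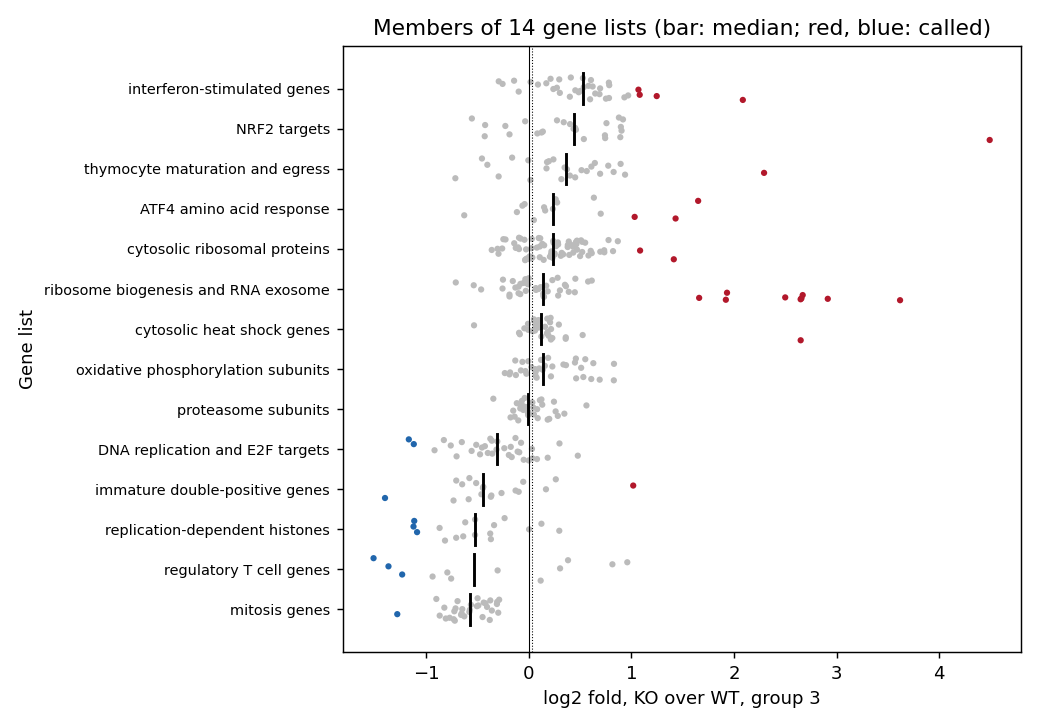
Log2 fold of the library labelled KO over WT in group 3 for the compared genes of 14 lists, 1 point a gene, with a bar at each median, red and blue for called genes and a dotted line at the median of all genes (0.03). The mitosis list lies wholly below 0, and the biogenesis list is centred near 0 with a separate tail of red points.

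Genes of immature double-positive thymocytes were mostly lower. Of 19, 1 was called lower and 1 higher, beside 0.939% and 1.13% of all genes. The median was -0.44, and the counting interval lay below 1 for 14, beside 23.1% of all genes. Ptcra, the pre-T cell receptor alpha chain, had 570 and 249 counts in group 3 and 755 and 305 in group 2. Rag1 stood at 0.601 of WT (interval 0.561 to 0.643). Elovl6, a fatty acid elongase on the same list, was the higher call with 77 and 187 counts. It was under 10 CPM in WT and was compared only through the library labelled KO. Of 26 maturation and egress genes 1 was called, Ly6c1, which was compared only through the library labelled KO, and the median was 0.36. Klf2, which controls exit from the thymus, lay at the low end with 2378 and 1689 counts. Cd69 had 4288 and 6315 counts, Cd4 6839 and 6914, and Cd8a 16584 and 15041, ratios of 1.26, 0.866 and 0.777. Bcl2, a survival gene, stood at 1.04, and Bcl2l11, its killer counterpart BIM, at 1.26.

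Regulatory T cell genes gave 3 lower calls and 0 higher among 12, beside 0.939% of all genes called lower, with a median of -0.53. Nrp1, neuropilin 1, had 402 and 179 counts, Itgae, the integrin CD103, 98 and 37, and Tnfrsf4 was the third. Itgae was under 10 CPM in the library labelled KO and was compared only through WT, which favours a lower call. Izumo1r, the folate receptor of regulatory T cells, had 839 and 1911 counts, and Capg, an actin capping protein, 371 and 766. Members of the list thus stood on both sides of WT, and without genes held by other lists the median was 0.60. Notch genes split as well, with Dtx1 and Hey1 called higher and Ptcra and Notch2 lower among 11, beside 1.13% and 0.939% of all genes. The median was -0.20, and 0.22 without genes held by other lists. Notch2, a receptor, had 112 and 52 counts in group 3 and 141 and 119 in group 2. It too was compared only through WT.

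Many of the strongest decreases were shared with group 2. Ctse (chr1:131638306-131675505), the aspartic protease cathepsin E, had 3625 counts in WT against 498 in the library labelled KO of group 3, and 4801 and 313 in group 2. Hoxa7, a homeobox factor, had 144 and 5 counts in group 3 and 128 and 22 in group 2. Slc45a3, a sugar transporter, had 129 and 8 counts in group 3 and 178 and 3 in group 2. Arl5c, a small GTPase, had 2117 and 513 in group 3 and 2558 and 739 in group 2. BC018473, an antisense transcript outside the naming rule, had 1918 and 10 counts in group 3 and 2702 and 9 in group 2. The pseudogene Gm8822 had 258 and 5 in group 3 and 376 and 1 in group 2. In all 6, both libraries labelled KO lay past 2-fold below both WT libraries, the order that 14 of the 83 lower genes showed. Hoxa7, Slc45a3, BC018473 and Gm8822 were under 10 CPM in the library labelled KO of group 3 and were compared only through WT.

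Other genes were called lower in group 3 and not in group 2. Atoh1 (chr6:64729125-64731245), a factor of neurons and secretory cells, had 143 counts in WT against 20 in the library labelled KO, beside 89 and 92 in group 2, a ratio of 0.120 (interval 0.0710 to 0.192). Arhgap24, which switches off RAC, had 135 and 41 counts in group 3 and 212 and 90 in group 2, where its log2 fold of -0.95 came close to the call. Cep112it, a non-coding transcript, had 112 and 28 in group 3 and 70 and 117 in group 2. Rorb, a nuclear receptor, had 144 and 61 in group 3 and 99 and 127 in group 2. All 4 were under 10 CPM in the library labelled KO of group 3. They passed the limit only through WT group 3, which favours a lower call in that group. For Atoh1 and Arhgap24 the library labelled KO of group 3 was the lowest of the 4 by over 2-fold, and for Cep112it too. Atoh1, Cep112it and Rorb were highest in WT group 3 and KO group 2, the 2 libraries with more genes detected. This order held for 20 of the 83 lower calls (24.1%), against 9.68% of all genes. Those 2 libraries were the lowest for 11 of the 100 higher calls, against 15.9% of all genes. The part of detection in these calls was not tested.

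The neddylation machinery itself changed little beside Uba3. Of 13 neddylation enzymes, Uba3 alone was called, and the median was 0.07. Ube2m, which carries NEDD8 to cullins, had 1555 and 1387 counts. Of 17 cullin and COP9 signalosome genes 0 were called, with a median of 0.14. Cul3, the cullin that degrades NRF2, had 1037 and 1947 counts in group 3 (ratio 1.61, interval 1.49 to 1.74) and 1531 and 1244 in group 2. Cops9, a short COP9 gene, had 141 and 273 in group 3 and 197 and 98 in group 2. Proteasome subunits gave 0 calls among 31, with a median of -0.0035.

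Markers of neutrophils appeared in the library labelled KO of group 3. Ngp, a neutrophil granule protein, had 6 counts in WT against 204 there, and 2 and 2 in group 2. S100a9 had 0 and 62 counts in group 3, S100a8 0 and 38, Ltf, lactoferrin, 1 and 72, and Camp, cathelicidin, 1 and 16. These 5 defining markers summed to 0.981 scaled CPM in WT against 41.2 in the library labelled KO, and to 1.33 and 0.566 in group 2. Only Ngp reached 10 CPM and was compared. Macrophage and dendritic markers summed to 41.7 and 68.4 scaled CPM, B cell markers to 13.0 and 20.9, erythroid to 294.8 and 289.3, epithelial to 27.8 and 31.0 and stromal to 115.2 and 124.2. The epithelial factor Foxn1 had 1 and 0 counts and Krt5 0 and 0. Epcam made up most of the epithelial sum (26.9 and 29.9 scaled CPM) and Pecam1 most of the stromal (112.2 and 122.0). The other stromal markers were near the floor, with 6 and 4 counts for Col1a1, 11 and 11 for Col3a1 and 7 and 6 for Pdgfra. The part of other cells in the rises of group 3 was not tested.

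Antibody genes varied by library. Igkv4-68, a kappa variable segment, had 3 counts in WT against 106 in the library labelled KO of group 3, and 4 and 1 in group 2. Igkv1-117 had 130 and 5 counts in group 3 and 0 and 45 in group 2. Igha, the constant region of IgA, had 869 and 372 counts in group 3 and 570 and 741 in group 2. Igkc had 504 and 595 in group 3 and 2304 and 4328 in group 2. Each of the 2 variable segments was thus high in 1 or 2 libraries without regard to genotype label.

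T cell receptor segments divided by kind. All 7 Trbj segments compared stood below WT, between 0.475 and 0.645, with a median log2 fold of -0.86, and Trbj1-3, Trbj1-5 and Trbj1-6 were called lower. Trbj1-5 had 449 and 249 counts in group 3 and 530 and 375 in group 2. The 18 Trbv segments had a median of 0.19 and 0 calls, and the 20 Trav segments a median of 0.40 with 2 called higher. Trav14n-3 had 39 and 130 counts and Trav14d-1 41 and 132, a pair of near copies between which reads can be divided wrongly. The constant genes had a median of -0.27. The 3 called Trbj segments are within 1.28 kb on chromosome 6 and their counts can share reads.

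Few called genes formed larger clusters. Of the 183, 34 had another called gene within 500 kb (18.6%), against 14.7% of all genes with a position. The other group of 3 or more lay at chr1:134962565-135284084 and held Ube2t and Rnpep, called higher, and Ptprv, called lower, among 5 genes compared. Ptprv, a receptor phosphatase, had 81 and 16 counts in group 3 and 118 and 24 in group 2. Rnpep, an aminopeptidase, had 315 and 868 in group 3, and Ube2t, a ubiquitin-conjugating enzyme of DNA repair, 128 and 329. Neighbours thus moved in both directions here. Ctse and Slc45a3 (chr1:131962967-131982969), both lower in group 3 and in group 2, are also neighbours within 500 kb.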

How the data were processed

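RNA sequencing counts per Ensembl gene for 4 libraries (1 per group), and RPKM for each, were deposited by the authors. The submitters' processing notes name TopHat2 2.0.12 and the build mm10; the counter, annotation, strand setting and removal of ribosomal RNA are not given in the sources used here, so overlapping and antisense genes cannot be told apart. Gene lengths implied by the deposited counts and RPKM were whole within 0.01 bases for 100% of values, which tied each column to its library. Symbols and positions came from GENCODE M21 (34490 of 35275 IDs).

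Counts were scaled with edgeR 4.0.16 (TMM; R 4.3.3). Ratios carry exact conditional binomial (Clopper-Pearson) 95% intervals for counting error only; log2 folds add a pseudocount of 0.5 CPM. Lists are described by counts of calls and medians. The calling script was tested on simulated data. Promoter windows were RefSeq's (GRCm38.p6). Work was done in Python 3.11.15 with DESeq2 1.42.0 for 1 alternative scaling.

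The genes compared, the 50 gene lists, the motifs and the rules were chosen with earlier results of these data known. Named genes were the 15 highest and 15 lowest calls, the 10 largest gains and losses in CPM, 8 each way of the largest difference from group 2, opposite calls, 2 genes at each end of a list, linked genes and 12 fixed genes; predicted genes and segments were left out, and any named beyond the rule, including Rrp1b, Rrp12, Dis3, Exosc2, Exosc10, Fbl, Ncl, Hsp90ab1, Hspa8, Txnrd1, Gclm and the marker genes, were chosen after their values were seen. Alternatives were other scalings, filters, pseudocounts and fold limits.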

Additional observations from a re-analysis of the deposited data

Results flagged for a closer look

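For 5 genes the calls went opposite ways in the 2 sorted groups, lower in the library labelled KO of group 3 and higher in that of group 2. The log2 folds were -1.08 and 1.16 for Nfic, -1.17 and 1.01 for Olfr613, -4.00 and 3.48 for Igkv1-117, -1.04 and 1.42 for Zfp488, and -1.15 and 1.09 for Gm15298. All 5 were highest in WT group 3 and KO group 2, the 2 libraries with more genes detected. The difference between the sorted groups was not tested, as each side is 1 library.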

How the results depend on the processing

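The counts of 100 higher and 83 lower genes were 107 and 81 with DESeq2 size factors, 86 and 93 with library totals, and 113 and 90 without a pseudocount. They became 258 and 608 at 2 CPM in either library, 60 and 22 at 10 CPM in both, 37 and 10 at 50 CPM, 78 and 53 with a pseudocount of 2 CPM, 50 and 25 with the whole interval past 2-fold, and 498 and 433 at 1.5-fold. A stricter level thus left a larger share of higher calls, 73.2% with 10 CPM in both libraries against 54.6%, while library totals gave 48.0%. No list median moved by more than 0.1 with either scaling. The BCL2 pro-death list went from 0.10 to -0.0924 with 10 CPM in both libraries and to -0.30 without genes shared between lists, and the stroma list from 0.15 to -0.35 at 2 CPM. Without shared genes, the medians of regulatory T cell genes (-0.53) became 0.60, of Notch genes (-0.20) 0.22, and of NK cell markers (0.15) -0.16. Of 227 named genes, 0 reversed, 5 lost the call with library totals and 20 with the whole interval past 2-fold. No paired analysis was possible because the labels carry no replicate numbers and the group 3 comparison has 1 library a side, so no library could be left out either. A fit of genotype over both stages, with the stage as a term, asks for a shared effect and was not run here. Within a 1000 kb window, 25.7% of called genes had a called neighbour, against 23.3% of all. Depth limits the weak genes: under 30 scaled CPM the interval of a ratio spanned a median factor of 1.596.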
